A study of Mus musculus with 6 samples.

Results

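The genes that encode ESCRT-III subunits and the Vps4 ATPases were compared between control and TET-deficient mouse embryonic stem cells (mESC). The 10 genes, *Chmp1a*, *Chmp2a*, *Chmp2b*, *Chmp3*, *Chmp4b*, *Chmp4c*, *Chmp5*, *Chmp6*, *Vps4a* and *Vps4b*, were chosen by name for their role in the scission of membranes. The choice was made with earlier results of these data known. All were found by their Ensembl identifiers among the 22380 gene identifiers of the deposited tables. Of these identifiers, 20775 could be paired with a mouse symbol. *Ctrl* mESC carried CreERT2 wt/ki and Gt(ROSA)26Sor<tm1Ytchn>/J wt/ki, an allele that gives an H2B-EGFP reporter once Cre has acted. *Tet iTKO* mESC carried the same alleles together with *Tet1/2/3* fl/fl, so that activation of CreERT2 deletes floxed exons of *Tet1*, *Tet2* and *Tet3*, the genes for the dioxygenases that oxidize methylcytosine in DNA. Both groups were therefore exposed to Cre and to tamoxifen (1 µM for 2.5 days, then 4 days without it), and RNA was taken at day 6.5 from 100000 sorted cells that were alive, Thy1.2-, CD326+ and GFP+. The cells grew in 2i medium on mouse embryonic fibroblast feeders. There were 3 Smart-Seq2 libraries per group, and the study states that its mESC populations of each genotype came from different embryos. The labels do not say which embryo a library came from.

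ESCRT-III proteins are small subunits that polymerize into filaments inside a membrane neck and narrow it until it breaks. The AAA ATPases VPS4A and VPS4B pull subunits out of the filament, which remodels it and returns the subunits to the cytosol. The same machinery forms multivesicular bodies, closes the nuclear envelope after mitosis and cuts the midbody bridge between daughter cells in abscission, the last step of cytokinesis.

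The 6 libraries held from 3964824 to 4219665 normalized counts, and the reads on genes behind them were estimated at 3.66 to 5.10 M. Of the targeted genes, *Tet3* had 28, 13 and 13 normalized counts in the *Ctrl* libraries against 10, 3 and 3 in *Tet iTKO* (log2 fold change -1.67, adjusted p = 0.035 by limma). *Tet1* had 696, 682 and 716 in *Ctrl* and 787, 895 and 753 in *Tet iTKO* (0.21, adjusted p = 0.026 by limma), and *Tet2* had 249, 170 and 230 and then 233, 268 and 211 (0.14, adjusted p = 0.43 by limma). The *Tet3* call was lost without *Ctrl* replicates 1 or 2 or *Tet iTKO* replicates 2 or 3 (adjusted p up to 0.18), and the *Tet1* call without *Ctrl* replicate 2 or *Tet iTKO* replicate 2 (0.14, adjusted p = 0.22). After the correction for GC content and length described below, *Tet1* was not called (0.17, adjusted p = 0.081 by limma). *Tet3* stayed called (-2.05, adjusted p = 0.012 by limma). These values cover whole genes and cannot set the deleted exons apart. The 9 mESC markers summed to between 11421 and 11784 normalized counts in *Ctrl* and between 10659 and 10975 in *Tet iTKO*, with *Fut4* at 2 or less in every library. Single markers moved both ways without overlap between groups. *Pou5f1* (5208 to 5804 in *Ctrl*, 4318 to 4775 in *Tet iTKO*), *Nanog* and *Zfp42* were lower. *Esrrb* (1174 to 1297 and 1503 to 1563), *Klf4* and *Epcam* were higher, and *Sox2* and *Tfcp2l1* overlapped. The 11 feeder fibroblast markers summed to between 292 and 310 in *Ctrl* and between 507 and 561 in *Tet iTKO*. Of these, the collagen genes rose, *Col1a1* from 150 to 181 to 281 to 349, *Col1a2* from 28 to 43 to 75 to 95 and *Col3a1* from 21 to 32 to 61 to 78. *Thy1* did not, with 30, 46 and 41 in *Ctrl* and 47, 35 and 23 in *Tet iTKO*. *Lox* had 10, 29 and 23 and then 15, 26 and 9. *Pdgfrb*, *Pdgfra*, *Twist1* and *Prrx1* had at most 9, and *Twist2* and *Postn* at most 3. The part of feeder cells in the results that follow was not tested. In bulk RNA, fewer cells of a type and less RNA per cell cannot be told apart.

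In *Tet iTKO* mESC, 5 of the 10 genes were lower (*Chmp4c*, *Chmp2a*, *Chmp3*, *Chmp5* and *Chmp1a*), *Chmp2b* was higher, and *Chmp4b*, *Chmp6*, *Vps4a* and *Vps4b* did not pass the test (limma on log2(normalized count + 1), adjusted p below 0.05 over all genes tested). The same test called 34.8% of the 10524 genes tested, 18.4% as lower and 16.4% as higher. The median log2 fold change of the 10 genes was -0.29, against 0.01 over all genes tested. The falls ranged from -0.18 for *Chmp1a* to -0.61 for *Chmp4c*. Leaving out a library gave 3 to 5 calls among the 10 genes, with the 3 found without *Tet iTKO* replicate 1, and a fit without the trend of variance on expression called *Chmp2b* alone. All 10 genes passed the filter on low values, a mean of at least 10 normalized counts over the 6 libraries. In 4 of the 10 genes (40%) the groups did not overlap, near the 44.1% of all genes tested, so this count is no result about these genes.

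Across genes, the fold change also moved with transcript properties. Over 10457 genes with an annotated transcript, the Spearman correlation of the log2 fold change was 0.258 with GC content and 0.293 with transcript length, a description across genes that share libraries and are not independent. The median transcript was 3352 bases long with 50% GC. *Chmp2a* measured 949 bases, *Chmp5* 1519, *Chmp6* 1557, *Chmp4b* 1616 and *Chmp2b* 1872, and only *Vps4b* and *Chmp4c* were longer than the median. GC content lay on both sides of the median. It was higher for *Chmp6* (58.3%), *Chmp1a* (56.2%), *Chmp4b* (55.1%), *Chmp2a* (53.3%) and *Vps4a* (51.6%). It was lower for *Chmp3* (47.2%), *Chmp4c* (45.6%), *Chmp5* (43.9%), *Chmp2b* (43.1%) and *Vps4b* (41.7%). After a robust loess correction of each library for GC content and length, 4 of the 10 genes were called, *Chmp1a*, *Chmp3* and *Chmp4c* as lower and *Chmp2b* as higher, against 26.2% of all genes. The median of the 10 then came to -0.12. A least-squares loess, run first, gave a median of -0.19 for the 10 genes. It called *Chmp6* as well (-0.41, adjusted p = 0.0087 by limma) and moved the median of all genes from 0.01 to -0.06. It split the calls over all genes into 1025 higher and 2007 lower, against 1731 and 1934 without correction and 1325 and 1416 with the robust form, which was chosen after this was seen. *Chmp2a* and *Chmp5* had corrected log2 fold changes of -0.01 and -0.02.

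Promoter sequences are shown for *Chmp2b*, which rose, and for *Chmp3* and *Chmp5*, which fell without overlap between groups, because the deleted enzymes act on methylcytosine in CpG dinucleotides. *Chmp1a* also fell without overlap and is not shown. Each is the 250 bases before a transcription start, 5′ to 3′ on the gene's own strand, from RefSeq on GRCm38.p6, with every CpG in capitals. *Chmp2b* lies at chr16:65562763-65563012 (minus strand), the second of the 2 *Chmp3* starts at chr6:71544103-71544352 (plus strand) and *Chmp5* at chr4:40948303-40948552 (plus strand).
Chmp2b: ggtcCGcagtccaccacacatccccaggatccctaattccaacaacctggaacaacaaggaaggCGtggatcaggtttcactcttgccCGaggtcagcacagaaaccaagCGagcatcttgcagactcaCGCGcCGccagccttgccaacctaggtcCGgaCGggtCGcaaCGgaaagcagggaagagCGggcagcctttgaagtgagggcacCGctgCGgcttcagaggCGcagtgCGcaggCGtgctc
Chmp3: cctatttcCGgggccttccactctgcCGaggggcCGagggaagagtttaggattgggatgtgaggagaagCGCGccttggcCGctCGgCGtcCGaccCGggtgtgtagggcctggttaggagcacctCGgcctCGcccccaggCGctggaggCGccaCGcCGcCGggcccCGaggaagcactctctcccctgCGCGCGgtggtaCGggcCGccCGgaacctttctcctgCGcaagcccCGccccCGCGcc
Chmp5: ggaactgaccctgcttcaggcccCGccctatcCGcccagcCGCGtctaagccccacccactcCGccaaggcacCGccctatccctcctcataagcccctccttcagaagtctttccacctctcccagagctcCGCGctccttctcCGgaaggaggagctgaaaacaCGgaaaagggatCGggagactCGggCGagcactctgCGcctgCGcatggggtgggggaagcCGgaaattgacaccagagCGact

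These windows held 17, 28 and 17 CpG, against a median of 6 over 32851 mouse promoter windows of the same length. RefSeq gave 9 windows for 8 of the 10 genes, and *Chmp4c* and *Chmp6* had no entry. The CpG count was 28 for *Chmp1a*, 21 for *Chmp4b*, 19 for *Vps4a*, 10 for *Chmp2a*, 9 for the other start of *Chmp3* and 9 for *Vps4b*. All 9 windows thus lay above the median, between the 59.7th and 92.4th percentile of all windows. The gene that rose had the same count as *Chmp5*, which was called lower before the correction for GC content and length and not after it. On both strands, the GC box core GGGCGG occurred in 4 of the 9 windows (32.7% of all windows), CCAAT in 1 (33.8%), TTTGAA in 1 (16%), and TATAAA (12.4%) and the E-box CACGTG (6.02%) in none. A match is a description of the letters only, and DNA methylation was not measured in these libraries.

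CHMP4 proteins form the main filament. *Chmp4c* (ENSMUSG00000027536.5) encodes the paralog that also acts in the abscission checkpoint, where it is a substrate of Aurora B. It had 186, 191 and 138 normalized counts in the *Ctrl* libraries and 145, 96 and 99 in the *Tet iTKO* libraries. The groups overlapped, since the highest *Tet iTKO* library lay above the lowest *Ctrl* library. The mean fell from 172 ± 29.3 to 113 ± 27.5 (SD, n = 3 each), a log2 fold change of -0.61 with a standard error of 0.17 (adjusted p = 0.005 by limma). The call held in each of the 6 fits that left out a library, and the corrected log2 fold change was -0.71 (adjusted p = 0.0014 by limma). A list drawn in one of the study's figures holds *Chmp4c* among the genes lower in these same libraries, so its direction is not independent evidence. The annotation places *Snx16*, a sorting nexin gene, on the opposite strand over 11040 bases of *Chmp4c*, and without strand, which Smart-Seq2 does not mark, reads of the overlap cannot be told apart. *Snx16* itself had 40, 47 and 58 normalized counts in the *Ctrl* libraries against 47, 44 and 66 in *Tet iTKO* (log2 fold change 0.11, adjusted p = 0.8 by limma).

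*Chmp4b* (ENSMUSG00000038467.9) encodes the CHMP4 paralog that is the main filament subunit in most cells. It gave 141, 137 and 115 normalized counts in the *Ctrl* libraries against 122, 95 and 107 in *Tet iTKO*. The ranges overlapped, and the log2 fold change of -0.28 had a 95% interval from -0.62 to 0.06 (adjusted p = 0.21 by limma). The log2 ratio of *Chmp4c* to *Chmp4b* was 0.40, 0.48 and 0.26 in the *Ctrl* libraries and 0.25, 0.01 and -0.11 in the *Tet iTKO* libraries. The groups did not overlap, with means of 0.38 ± 0.11 and 0.05 ± 0.18 (SD, n = 3 each) and a difference of -0.33. An exact two-sided permutation test gave p = 0.1, the smallest that 3 libraries against 3 can give, and 0.15 after adjustment over the 3 paralog ratios compared. The difference was -0.54 after the correction for GC content and length. These ratios are of counts not scaled by transcript length, so they serve to compare groups and not the levels of the paralogs.

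*Chmp6* (ENSMUSG00000025371.6) encodes the subunit that links ESCRT-II to the start of the filament. It had 277, 294 and 238 normalized counts in the *Ctrl* libraries against 191, 222 and 247 in *Tet iTKO*, with overlapping groups. The log2 fold change was -0.29 with a 95% interval from -0.54 to -0.05, which excluded 0, but the adjusted p over all genes was 0.059 (limma). The adjusted p was 0.041 after rescaling by the trimmed mean of M values, 0.1 after quantile normalization, 0.17 without the variance trend and 0.095 after the robust correction, and ran from 0.025 to 0.27 when a library was left out.

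CHMP2A, CHMP2B and CHMP3 join the filament after CHMP4 and bring in VPS4. The clearest of their values were those of *Chmp3* (ENSMUSG00000053119.5), with 524, 512 and 468 normalized counts in the *Ctrl* libraries against 378, 357 and 428 in *Tet iTKO*. Every *Tet iTKO* library lay below every *Ctrl* library. The mean fell from 501 ± 29.5 to 388 ± 36.5 (SD, n = 3 each), a log2 fold change of -0.37 with a standard error of 0.09 (adjusted p = 0.0016 by limma). *Chmp3* stayed called in each of the 6 fits that left out a library, and after the correction it stood at -0.25 (adjusted p = 0.037 by limma). Of its transcript's stretches of 50 bases, 6.76% also occur in another gene, mainly processed pseudogenes, and unique alignment can lose such reads. The annotation also places the antisense gene *1700040L08Rik* on the opposite strand over 318 bases of *Chmp3*, where reads cannot be told apart without strand.

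For *Chmp2a* (ENSMUSG00000033916.4), the *Ctrl* libraries held 261, 232 and 275 normalized counts against 175, 187 and 237 in *Tet iTKO*. Its *Tet iTKO* libraries were the lower ones apart from replicate 3, which lay above *Ctrl* replicate 2. The log2 fold change was -0.37 with a standard error of 0.13 (adjusted p = 0.024 by limma). Of the 6 fits that left out a library, 4 lost this call (highest adjusted p = 0.13, without *Tet iTKO* replicate 1; also lost without *Tet iTKO* replicate 2, *Ctrl* replicate 1 or *Ctrl* replicate 3), and the correction for GC content and length left -0.01 (adjusted p = 0.97 by limma).

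*Chmp2b* (ENSMUSG00000004843.6), the paralog whose human counterpart is mutated in a form of frontotemporal dementia, moved the other way. It had 70, 61 and 71 normalized counts in the *Ctrl* libraries against 107, 93 and 107 in *Tet iTKO*, so that every *Tet iTKO* library lay above every *Ctrl* library. The mean rose from 67.3 ± 5.51 to 102 ± 8.08 (SD, n = 3 each), 152% of the *Ctrl* level, with a log2 fold change of 0.60 and a standard error of 0.20 (adjusted p = 0.018 by limma). The corrected log2 fold change was larger, 0.89 (adjusted p = 0.00078 by limma). The rise was called in 3 of the 6 fits that left out a library, and without *Ctrl* replicate 2, *Tet iTKO* replicate 1 or *Tet iTKO* replicate 3 the adjusted p reached at most 0.067.

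The log2 ratio of *Chmp2a* to *Chmp2b* was 1.88, 1.91 and 1.94 in the *Ctrl* libraries and 0.70, 1.00 and 1.14 in the *Tet iTKO* libraries. The groups lay far apart for this ratio, with means of 1.91 ± 0.03 and 0.95 ± 0.22 (SD, n = 3 each) and a difference of -0.96. The exact two-sided permutation p was 0.1, again the smallest possible, and 0.15 after adjustment over the 3 ratios. The difference was -0.90 after the correction for GC content and length.

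**Figure D1:**
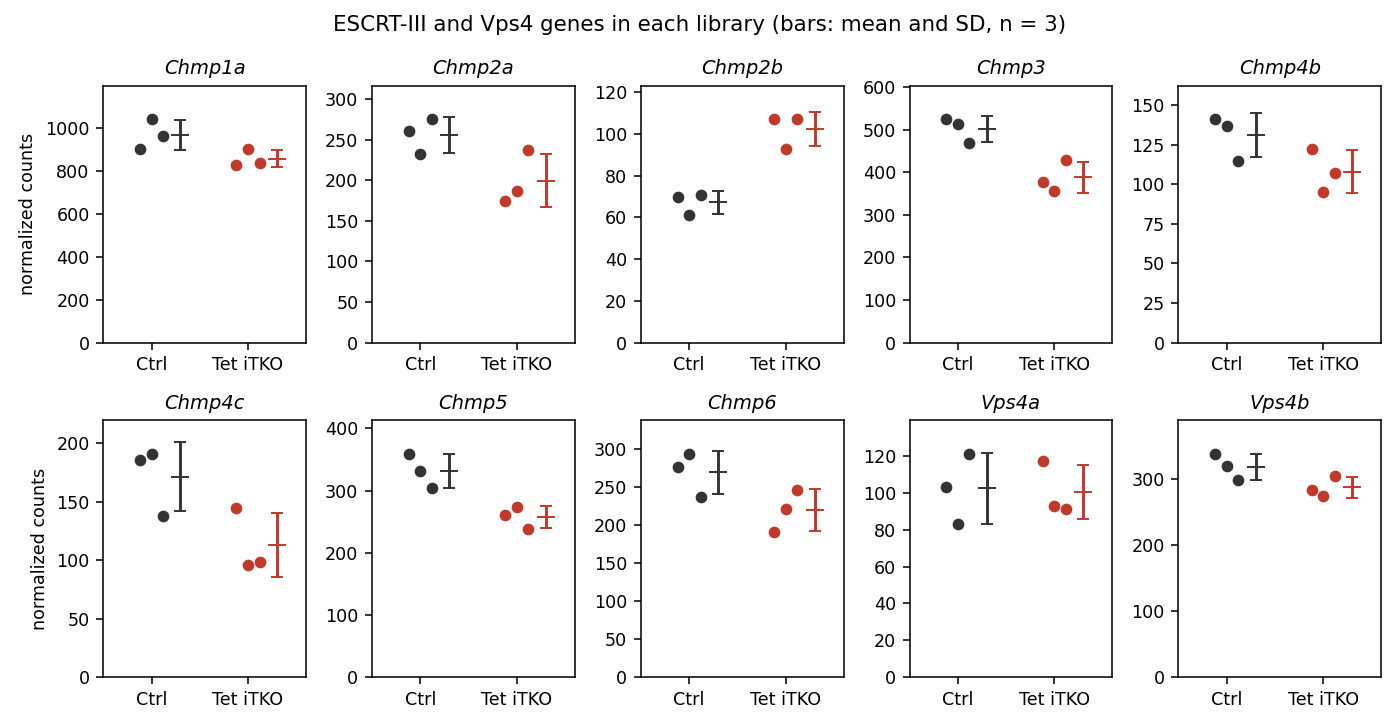
Normalized counts (vertical axes, from 0) of the 10 genes in the 3 *Ctrl* (dark) and 3 *Tet iTKO* (red) libraries, with each group's mean and SD beside the points. The groups do not overlap for *Chmp1a*, *Chmp3* and *Chmp5*, which are lower in *Tet iTKO*, and for *Chmp2b*, which rises from 67.3 to 102.

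CHMP1A and CHMP5 act late, in the disassembly of the filament and the control of VPS4. *Chmp5* (ENSMUSG00000028419.5) had 359, 332 and 304 normalized counts in the *Ctrl* libraries against 261, 274 and 238 in *Tet iTKO*. All *Tet iTKO* libraries lay below all *Ctrl* libraries. The mean fell from 332 ± 27.5 to 258 ± 18.2 (SD, n = 3 each), a log2 fold change of -0.36 with a standard error of 0.11 (adjusted p = 0.0084 by limma). The call was lost without *Ctrl* replicate 1 (adjusted p = 0.0532) and without *Tet iTKO* replicate 3 (adjusted p = 0.0541), and the corrected log2 fold change was -0.02 (adjusted p = 0.9 by limma).

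*Chmp1a* (ENSMUSG00000000743.8) had 905, 1042 and 963 normalized counts in the *Ctrl* libraries against 830, 903 and 840 in *Tet iTKO*. The groups lay next to each other, 2 normalized counts apart at the nearest. The mean went from 970 ± 68.8 to 858 ± 39.6 (SD, n = 3 each), a log2 fold change of -0.18 with a standard error of 0.07 (adjusted p = 0.0496 by limma). This value sat at the threshold: 4 of the 6 fits that left out a library lost the call (without *Ctrl* replicates 2 or 3 or *Tet iTKO* replicates 1 or 3, at adjusted p up to 0.25), and quantile normalization of the log2 values gave -0.08 (adjusted p = 0.39 by limma). The corrected log2 fold change was -0.23 (adjusted p = 0.011 by limma). *Chmp1a* shared 10.5% of its stretches of 50 bases with another gene, the largest share of the 10 genes, so its counts are the least certain in that respect. It is also overlapped on the opposite strand, by *Gm20388* over 8500 bases and by the processed pseudogene *Rps12-ps9* over 399. *Gm20388* had 0 normalized counts in every library. Without strand, reads of such overlaps cannot be told apart.

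The Vps4 ATPases showed no difference that passed the test. *Vps4a* (ENSMUSG00000031913.9) had 103, 83 and 121 normalized counts in the *Ctrl* libraries against 117, 93 and 91 in *Tet iTKO*, a log2 fold change of -0.02 with a 95% interval from -0.40 to 0.36 (adjusted p = 0.95 by limma). The sign of this small value turned under the correction, to 0.08. On the opposite strand, the annotation places *Pdf* over 1058 bases of *Vps4a* and the processed pseudogene *Gm16209* over 627. Reads of these overlaps cannot be told apart without strand. *Vps4b* (ENSMUSG00000009907.10) had 338, 320 and 298 normalized counts in the *Ctrl* libraries against 283, 274 and 305 in *Tet iTKO*, with 1 *Tet iTKO* library above the lowest *Ctrl* library. Its log2 fold change was -0.15 with a 95% interval from -0.36 to 0.06 (adjusted p = 0.29 by limma). The log2 ratio of *Vps4a* to *Vps4b* was -1.64 ± 0.32 in *Ctrl* and -1.52 ± 0.24 in *Tet iTKO* (SD, n = 3 each; exact two-sided permutation p = 0.7, and 0.7 after adjustment over the 3 ratios). The interval of *Vps4a* still includes a change of the size seen for *Chmp3*.

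**Figure D2:**
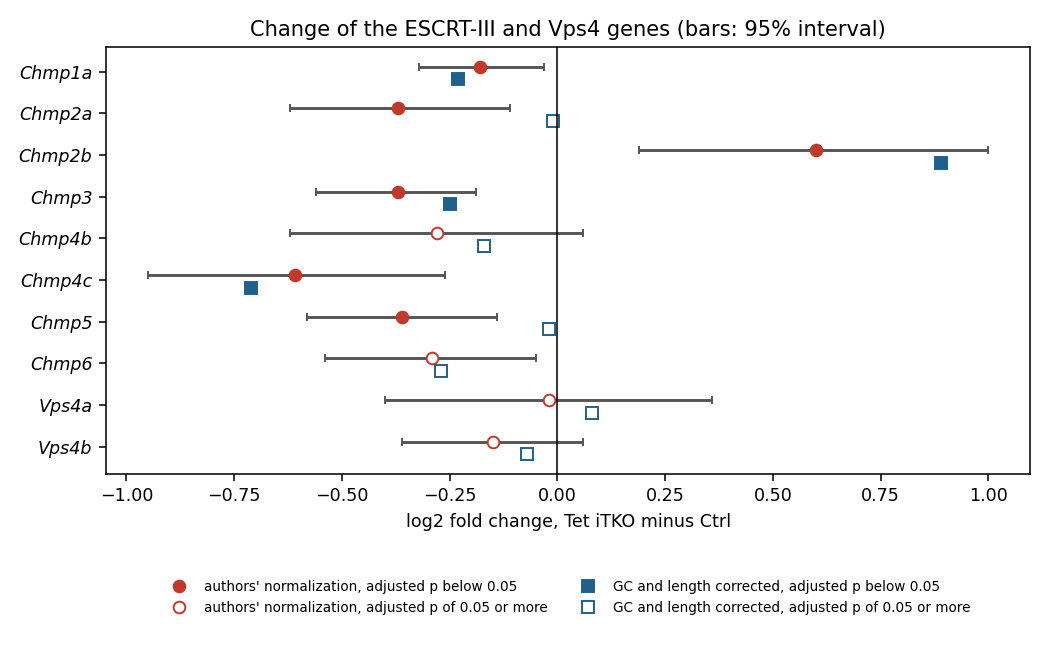
Log2 fold change of each gene, *Tet iTKO* minus *Ctrl* (horizontal axis), as deposited (circles, with 95% intervals) and after correction for transcript GC and length (squares, without intervals). Filled marks have a limma adjusted p below 0.05. *Chmp4c* and *Chmp2b* lie farthest from 0 at -0.61 and 0.60, and *Chmp2a* and *Chmp5* move to about 0 with the correction.

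Levels of different genes were compared per kb of transcript. By the longest annotated transcript, the *Ctrl* level was highest for *Chmp1a*, at 453 ± 32.1 normalized counts per kb (SD, n = 3). *Chmp2a* (270 ± 23.1), *Chmp5* (218 ± 18.1), *Chmp3* (189 ± 11.1) and *Chmp6* (173 ± 18.4) followed, in normalized counts per kb. A lower group held *Chmp4b* (81.1 ± 8.66), *Vps4b* (68.8 ± 4.32), *Vps4a* (47 ± 8.73), *Chmp2b* (36 ± 2.94) and *Chmp4c* (27.7 ± 4.73). The libraries of *Chmp3* and *Chmp6* overlapped, as did those of *Chmp4b* and *Vps4b*, and no other neighbours in this order did. *Chmp4c* was also the lowest in *Tet iTKO*, at 18.3 ± 4.44 per kb, whereas *Chmp2b* (54.7 ± 4.32) there passed *Vps4a* (46.1 ± 6.64) in mean level. With the union of all exons as the length, *Vps4a* came before *Vps4b* (40.6 ± 7.54 and 35.8 ± 2.25 per kb in *Ctrl*, with overlapping libraries), and *Chmp1a* and *Chmp4c* kept the first and the last place.

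**Figure D3:**
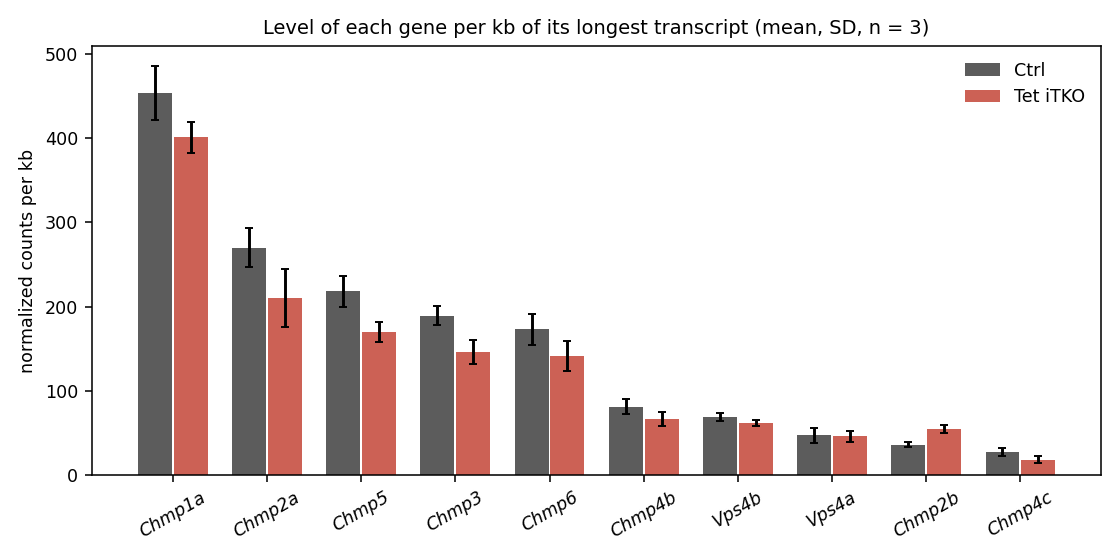
Mean normalized counts per kb of the longest transcript (vertical axis, from 0) in *Ctrl* (dark) and *Tet iTKO* (red), with SD over 3 libraries as error bars, in order of the *Ctrl* level. *Chmp1a* is highest at 453 and *Chmp4c* lowest at 27.7 per kb in *Ctrl*, and *Chmp2b* is the gene whose *Tet iTKO* bar is clearly taller than its *Ctrl* bar.

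Among 7788 genes with a mean of at least 50 normalized counts, the profile nearest to that of *Chmp4c* over the 6 libraries, by the root mean square distance of centred log2 values, was that of *Ercc8* at 0.0959. It was followed by *Ube2w* at 0.115 and *Ivns1abp* at 0.125. The nearest of the 10 genes was *Chmp4b*, at rank 140 with a distance of 0.205. These distances describe the same 6 libraries and were not tested.

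The other genes of the pathway were read from 4 lists of 48 tested genes, in which 14 were higher and 6 lower in *Tet iTKO* mESC, where 16.4% of all genes tested were called higher and 18.4% lower. Their median log2 fold change was 0.10. After the correction for GC content and length, 9 were higher and 3 lower (12.7% and 13.5% of all genes), and the least-squares loess gave 5 and 6. Of the 20 genes called before the correction, 9 were called after it, and *Spast*, *Prc1* and *Incenp* were called only after it.

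Among the other ESCRT-III subunits and Vps4 cofactors, 2 of the 10 genes tested were higher and 1 was lower, a share near the 34.8% of all genes called in either direction. *Cc2d1a* and *Cc2d1b*, whose products bind CHMP4 proteins and limit their polymerization, had log2 fold changes of 0.62 and 0.45 (adjusted p = 0.0015 and 0.0029 by limma). *Mitd1*, whose product is recruited by ESCRT-III to the midbody, fell by 0.53 on the log2 scale, from 119, 108 and 119 normalized counts to 89, 69 and 81 (adjusted p = 0.023 by limma). The call of *Mitd1* was lost without *Ctrl* replicate 1, *Ctrl* replicate 3 or *Tet iTKO* replicate 2 (adjusted p up to 0.12), and none of these 3 genes passed after the correction (0.26, 0.23 and -0.13). *Chmp7*, *Ist1*, *Vta1*, *Spast*, *Stambp*, *Usp8* and *Lemd2* did not pass, with log2 fold changes from -0.25 to 1.17, but *Spast* was called after the correction (0.34, adjusted p = 0.0496 by limma). *Chmp1b* was not analysed here.

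Of the 14 upstream ESCRT and ALIX genes tested, 4 were higher and 2 lower, against 34.8% of all genes called in either direction. The ESCRT-I genes *Vps37b* and *Tsg101* had log2 fold changes of 0.69 and 0.24 (adjusted p = 0.0034 and 0.031 by limma), and both stayed called after the correction, at 0.51 each. *Tsg101* was not called without *Ctrl* replicates 1 or 2 or *Tet iTKO* replicates 1 or 3 (adjusted p up to 0.12). *Ptpn23* (0.53) and *Pdcd6ip* (0.31), which encode the Bro1 domain proteins HD-PTP and ALIX, were called as higher before the correction and not after it (0.11 and 0.18). *Pdcd6*, a calcium-binding partner of ALIX, and *Snf8*, an ESCRT-II subunit, had log2 fold changes of -0.46 and -0.38 (adjusted p = 0.00096 and 0.0011 by limma), and -0.18 and -0.11 after the correction, no longer called. With the least-squares loess, *Pdcd6* stayed called (-0.29, adjusted p = 0.042 by limma). *Vps28* was not analysed here, and *Vps37d*, *Mvb12b* and *Vps25* lay below the filter.

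In the midbody and cytokinesis list, 5 of 17 genes were higher and 2 lower, a share near the 34.8% over all genes. *Kif23* and *Racgap1*, the subunits of centralspindlin, had log2 fold changes of 0.40 and 0.28 (adjusted p = 0.0009 and 0.0012 by limma), which the correction left at 0.49 and 0.28. *Cit*, the gene for citron kinase, and *Sept9*, a septin, had log2 fold changes of 0.45 and 0.29, against 0.05 and 0.08 with the correction. *Kif20a*, a kinesin of the central spindle, had 849, 811 and 834 normalized counts in the *Ctrl* libraries against 688, 675 and 706 in *Tet iTKO*, a log2 fold change of -0.27 (adjusted p = 0.0032 by limma), and *Rhoa*, the GTPase of the contractile ring, had -0.17 (adjusted p = 0.033 by limma). *Rhoa* was not called without *Ctrl* replicates 1 or 2 or *Tet iTKO* replicates 2 or 3 (adjusted p up to 0.22). *Cep55*, which recruits ALIX and ESCRT-I to the midbody, did not pass (-0.23, adjusted p = 0.12 by limma).

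The abscission checkpoint list had 3 of 7 genes higher and 1 lower, against 34.8% of all genes called in either direction. *Birc5*, the gene for survivin in the chromosomal passenger complex, had 1638, 1663 and 1659 normalized counts in the *Ctrl* libraries against 1214, 1262 and 1246 in *Tet iTKO*. The libraries of each group lay close together and far from those of the other, with a log2 fold change of -0.41 and a standard error of 0.06 (adjusted p = 5.2e-07 by limma), and -0.34 with the correction. *Cdca8*, the gene for borealin in the same complex, moved the other way, with 955, 963 and 1004 against 1190, 1105 and 1228 normalized counts and a log2 fold change of 0.27 (adjusted p = 0.0014 by limma). The other members of that complex in the list, *Aurkb* and *Incenp*, had log2 fold changes of 0.09 and -0.05 and did not pass, although *Incenp* was called lower after the correction (-0.21, adjusted p = 0.0488 by limma). *Ulk3*, a kinase that phosphorylates ESCRT-III subunits, rose from 14, 31 and 31 to 47, 65 and 38 normalized counts (log2 fold change 1.00, adjusted p = 0.02 by limma), and *Zfyve26* had 0.69 (adjusted p = 0.0492 by limma). These low values depended on single libraries, as *Ulk3* was lost without *Ctrl* replicate 1 (0.64) or *Tet iTKO* replicates 1 or 2, and *Zfyve26* without *Ctrl* replicates 1 (0.45) or 2 or *Tet iTKO* replicates 1 or 2. The correction for GC content and length took *Zfyve26* to 0.29 (adjusted p = 0.47 by limma) and *Ulk3* to 0.93 (adjusted p = 0.037 by limma).

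**Figure D4:**
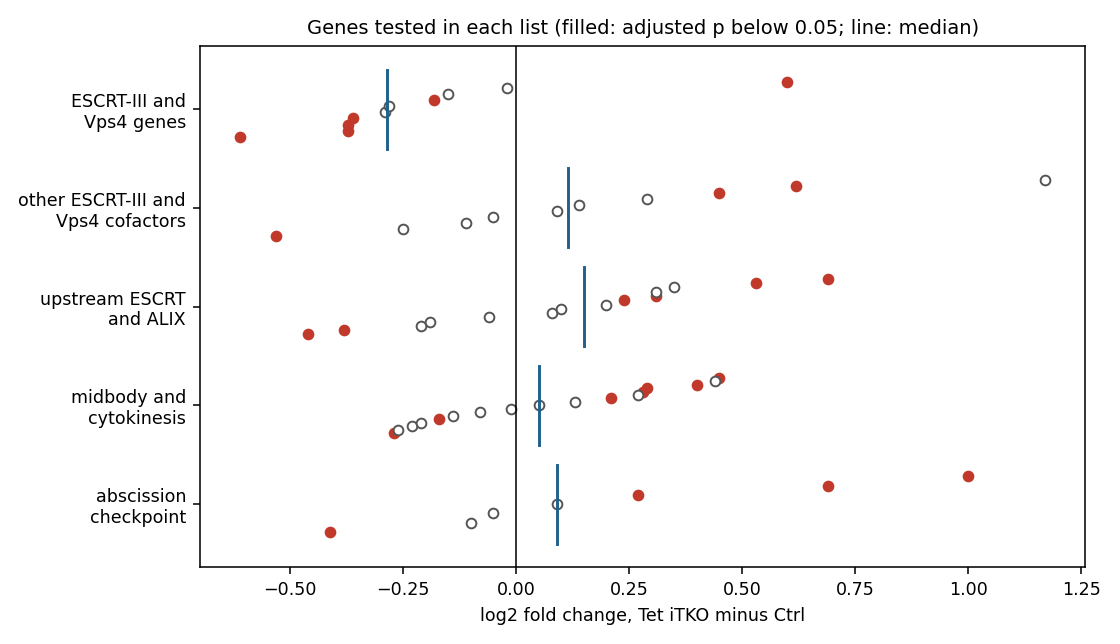
Log2 fold change, *Tet iTKO* minus *Ctrl* (horizontal axis), of every tested gene in the ESCRT-III and Vps4 group (10 genes) and in the 4 other lists (48 genes). Filled red circles have a limma adjusted p below 0.05 and the blue line is the median of each list, which is -0.29 for the ESCRT-III and Vps4 genes.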

How the data were processed

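The authors aligned paired-end reads (50 bases each) to the genome by STAR with multimapping reads dropped, assigned them to genes by HTSeq 0.7.1 and scaled the counts by DESeq2 1.26.0 size factors in R 3.5.2. The study gives the stranded setting of HTSeq (-s yes), although Smart-Seq2 does not mark strand. What this setting did to the counts was not tested. The submitters' processing notes name mm9, and the annotation is not given in the sources used here. The deposited values are the scaled counts after rounding, held here in the unit score because they are no longer read counts, so the count model of the study was not refitted. Reads per library were estimated from the gaps and repeats that rounding leaves among low values.

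Identifiers were paired with symbols, transcript lengths and GC content through GENCODE vM21. Genes whose mean reached 10 were transformed as log2(normalized count + 1) and fitted in limma 3.58.1 (R 4.3.3) by lmFit and eBayes with trend=TRUE. P-values were adjusted by Benjamini-Hochberg over all genes tested, and calls were made at 0.05. The test was tried on simulated data. The GC and length correction subtracted a loess (span 0.3) fitted to each library. Ratios were compared with exact permutation tests over libraries. Other steps used pandas 2.3.3 and NumPy 2.4.6 under Python 3.11.15.

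The named genes were the 10 ESCRT-III and Vps4 genes, the targeted genes, up to 4 called genes per list and direction, the 3 profiles nearest to *Chmp4c* and genes that overlap one of the 10. Other list genes named as not passing, and *Bag1*, *Cog8*, *Trim28* and *Ube2m*, were chosen after their values were seen. The 10 genes and the lists were chosen with earlier results of these data known. Since PCR copies were not marked by molecular identifiers, reads are not independent molecules and depth speaks of counting error only.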

Additional observations from a re-analysis of the deposited data

How the results depend on the processing

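With the authors' normalization, 6 of the 10 ESCRT-III and Vps4 genes, 20 genes of the 4 other lists and 3665 genes in all were called. Without the trend of variance on expression these counts were 1, 6 and 2292, the cause of which was not tested. In the other lists, 12 genes were called after the correction for GC content and length (9 of the 20 and 3 others). Together with the replicate block, 13 were called. The least-squares loess, run first, gave 11, and the robust loess was chosen after its counts were seen. Leaving out each library in turn gave 3 to 5 calls among the 10 genes, 16 to 19 in the other lists and 2982 to 3345 in all. The log2 fold change of *Vps4a* changed sign with the correction (0.08, and 0.08 with the replicate block) and ran from -0.16 to 0.11 when a library was left out (0.11 without *Ctrl* replicate 3, 0.03 and 0.04 without *Tet iTKO* replicates 2 and 3). The difference of the *Vps4a* to *Vps4b* ratio ran from -0.02 to 0.30 and the log2 fold change of *Tet2* from -0.02 to 0.26, with the lowest value of each without *Ctrl* replicate 2. The least-squares loess ended the calls of *Vps37b* (0.37, limma adjusted p = 0.14) and *Ulk3* (0.85, limma adjusted p = 0.0535), kept by the robust form, and turned the sign of *Ptpn23* (-0.04), *Cit* (-0.06) and *Sept9* (-0.00083). It kept the calls of *Pdcd6* (-0.29, limma adjusted p = 0.042) and *Rhoa* (-0.16, limma adjusted p = 0.037), ended by the robust form.

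Libraries with the same replicate number did not deviate together (correlations of 0.000706, -0.00543 and -0.00314). This cannot tell whether same-numbered libraries were made together. The study states that the data came from independent experiments, and the labels do not pair the libraries. With the replicate block, 6 of the 10 genes, 22 genes of the other lists and 3742 genes in all were called. What depth limits among these genes was not tested, and the libraries held an estimated 3.66 to 5.10 M reads on genes.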

Other observations

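*Bag1*, a cochaperone gene that starts 113 bases from *Chmp5* on the opposite strand, was looked at after its values were seen, as a neighbour of a gene that fell. It had 819, 856 and 938 normalized counts in the *Ctrl* libraries against 721, 728 and 749 in *Tet iTKO*, a log2 fold change of -0.25 (adjusted p = 0.0072 by limma). Every *Tet iTKO* library lay below every *Ctrl* library for both genes. The correction for GC content and length left -0.05 for *Bag1* and -0.02 for *Chmp5*. *Cog8*, which lies next to *Vps4a*, had 336, 329 and 291 and then 260, 274 and 271 normalized counts (log2 fold change -0.24, adjusted p = 0.072 by limma), and -0.47 with the correction (adjusted p = 0.00088 by limma). *Trim28* and *Ube2m*, which flank *Chmp2a*, had log2 fold changes of -0.0019 and 0.0011 (adjusted p = 0.98 and 0.99 by limma), and the first of these had -0.33 with the correction (adjusted p = 2.2e-09 by limma).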
